A study of Mus musculus with 1536 samples.

Results

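Synaptotagmins, SNARE proteins, complexins and their partners were followed in single mouse serotonin neurons as 58 genes, chosen by symbol from the 53263 rows of the expression table: 17 synaptotagmins (Syt), 15 syntaxins (Stx), 8 VAMPs, 4 SNAPs, 4 complexins (Cplx), 7 syntaxin-binding genes (Stxbp) and 3 SV2 genes. The cells were tdTomato-positive neurons of C57BL/6J mice 40 to 45 days old that carried Sert-Cre and the Cre reporter Ai14, so that every cell of both groups had made the serotonin transporter at some time. One group came from the principal dorsal raphe, without its caudal end (pDR, 290 cells on 5 plates), and the other is labelled All DR (709 cells on 11 plates), a dissection that, per the series' design, held the whole dorsal raphe together with the median raphe. Each cell was 1 Smart-seq2 library made from polyA RNA, with a median of 827283 reads on genes. Per the study's methods, each dissection was taken from several brains, and mice of both sexes were used. The labels do not say which brain a cell came from, so each dissection was treated as 1 sample, plates were technical units, and no p-value was computed. Differences are therefore given with the spread over plates (mean ± SD, n = plates) and the number of plates on each side, and "past 2-fold" means a log2 ratio of at least 1 in size between means with 1 CPM added. CPM is the number of reads of a gene scaled for the depth of its cell.

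A synaptic vesicle fuses when a SNARE on the vesicle (a VAMP, also called synaptobrevin) zips into a bundle with 2 kinds of SNARE on the plasma membrane, a syntaxin and a SNAP. Munc18 proteins hold and template the syntaxin, complexins clamp and activate the partly zipped bundle, and vesicle synaptotagmins sense the calcium that triggers fusion, while SV2 proteins are transporter-like vesicle proteins that bind synaptotagmin. Serotonin neurons use this machinery at synapses and at varicosities without a facing partner, and some also load glutamate through VGLUT3, the product of Slc17a8.

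All 6 markers of serotonin neurons (Tph2, Fev, Slc6a4, Slc18a2, Ddc and Gch1) were detected in at least 50% of cells, and their summed level had a median of 19763 CPM in pDR and 21221 CPM in All DR. All 6 astrocyte, 6 microglial and 4 endothelial markers had a median of 0, as had the 5 markers of glutamatergic, dopaminergic and GABAergic neurons (Slc17a6, Slc17a7, Th, Slc6a3 and Slc32a1). Among the 6 oligodendrocyte markers, Mog, Mag and Mobp had a median of 0, and the summed level of the list ranged from 71.3 to 190 CPM between pDR plates and from 119 to 1658 CPM between All DR plates.

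A pair of members whose levels moved in opposite directions in the comparisons below, Stxbp6 and Sv2b, are shown with the 250 bases before their RefSeq starts (GRCm38.p6, minus strand, 5′ to 3′). Stxbp6, which makes the syntaxin-binding protein amisyn, has 1 start in the RefSeq table and Sv2b has 4, of which the most upstream one and the one with CACCTG (or CAGGTG on the other strand), a motif known to be bound by ZEB proteins, are printed. Capitals mark that motif, which no other part of the 3 windows held. The first bases after the Sv2b start with the motif were not found in a GENCODE M21 transcript of the gene. Those after the other printed starts were found. Whether that start is used in these cells was not tested.
Stxbp6, chr12:45074484-45074733: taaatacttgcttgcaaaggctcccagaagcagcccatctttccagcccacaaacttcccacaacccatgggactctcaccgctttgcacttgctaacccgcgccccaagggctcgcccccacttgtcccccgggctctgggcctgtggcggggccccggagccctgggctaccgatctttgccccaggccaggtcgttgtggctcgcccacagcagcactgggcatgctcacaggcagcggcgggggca
Sv2b, most upstream start, chr7:75309263-75309512: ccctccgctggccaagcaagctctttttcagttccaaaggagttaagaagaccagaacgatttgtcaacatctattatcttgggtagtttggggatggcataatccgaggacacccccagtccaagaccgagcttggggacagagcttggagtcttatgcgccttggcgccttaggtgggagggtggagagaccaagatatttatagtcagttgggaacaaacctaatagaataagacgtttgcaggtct
Sv2b, a second start, chr7:75308387-75308636: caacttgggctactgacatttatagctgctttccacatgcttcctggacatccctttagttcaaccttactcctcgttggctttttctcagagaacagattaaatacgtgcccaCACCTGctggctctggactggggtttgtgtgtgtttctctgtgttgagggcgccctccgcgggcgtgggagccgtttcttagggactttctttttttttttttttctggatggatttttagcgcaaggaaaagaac
CACCTG on either strand was found upstream of 17.2% of the 32851 RefSeq starts in the table and of 9 of the 59 starts of members (15.3%), which belonged to 45 of the 58 members. The share among members was close to that of all starts. Syt17 and Snap25 had no entry.

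Reads of most of the fusion machinery were found in at least 50% of the serotonin neurons, as were those of most genes above 2 CPM. Of the 58 members, 40 had a read in at least 50% of the 999 cells. Among the 25522 genes with a read in at least 3 cells, a filter that 55 of the 58 members passed, the share was 35.9%. All 40 were among the 47 members with a mean above 2 CPM, and of the 11518 such genes 78.6% were detected as widely. At higher cuts, 27 members had a read in at least 90% of cells and 16 in at least 99%. At the other end, 11 members had reads in fewer than 10% of cells, among them Cplx3 and Cplx4, Vamp5, Vamp8, Syt6, Syt10 and Stx11. The shares of all genes at these 3 cuts were not computed, so the counts cannot be set against them. Syt8 had a read in 0 of 999 cells, which allows a share of up to 0.300% (3 cells, counting error only).

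Compared per kilobase of exon, which sets levels of different genes side by side only roughly, Snap47 led with 523 CPM per kb. Others near the top were Snap25 (291), Syt1 (180), Syt11 (165), Syt4 (149), Cplx1 (137) and Vamp2 (108). The length counts all annotated exons of a gene, not the transcripts used in these cells. It was 10.2 kb for Vamp1 and 3.81 kb for Vamp2, whose means were 63.9 and 410 CPM. Rankings and shares of a family total given per kilobase rest on these lengths. Counting ignored strand, and 11% of the exon bases of Snap47 (a relative of Snap25 without its membrane anchor) and 14% of those of Syt4 overlap a gene on the opposite strand, so their levels are uncertain.

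Among the genes of evoked release, levels per kilobase were uneven within a family. Among the calcium sensors for fast release, Syt1 was read in all 999 cells (180 CPM per kb), Syt9 in 93.8% (13.1 CPM per kb) and Syt2 in 16.1% (0.36 CPM per kb). The combination of Syt1 and Syt9 without Syt2 was found in 225 of 290 pDR cells and 564 of 709 All DR cells. Syt7, the sensor with high calcium affinity linked to slow release, had a mean of 3.49 CPM and reads in 38.9% of cells. Stx1a, a syntaxin of the synapse, stood at 38.3 CPM per kb, and of the vesicle SNAREs Vamp2 stood at 108 and Vamp1 at 6.28 CPM per kb. Cplx1 (137 CPM per kb) and Cplx2 (65.6 CPM per kb) were both read in at least 99.8% of cells. Syt11 and Syt4, synaptotagmins that do not bind calcium in the usual way, followed Syt1 and came before Syt5 (88.6 CPM per kb).

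**Figure D1:**
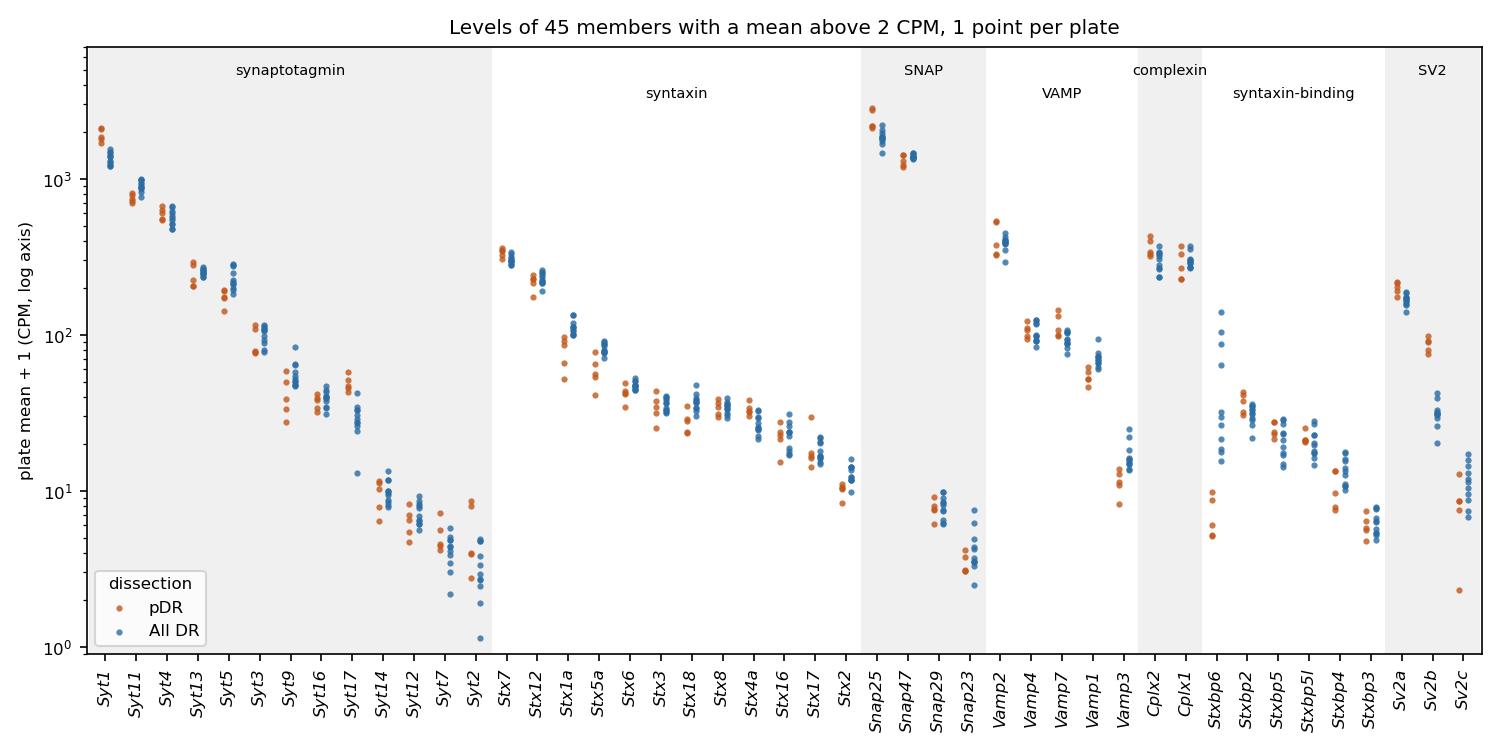
Mean level of members above 2 CPM (45 of the 47), 1 point per plate (mean CPM plus 1, log axis), for the 5 pDR plates and the 11 All DR plates, ordered by family and level. Stxbp6 covers 14.6 to 139.7 CPM over the All DR plates and 4.15 to 8.80 CPM over the pDR plates, and Sv2b is higher on every pDR plate.

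Levels were next compared between plates of 1 dissection. The highest plate mean was past 2-fold of the lowest for 4 of 47 members in pDR and for 8 of 47 in All DR, where 25.7% and 30.1% of all 11518 genes did so. The count for pDR was 1 of 47 without plate 39, 0 with 10 CPM added, 11 without cells above 100 CPM of glial and endothelial markers, and 16 from means of ln(CPM + 1). That for All DR was 2 with 10 CPM added and 13 without the glia-marked cells. Of the 16 members above 100 CPM, 0 did so in either dissection (6.31% and 6.86% of the 1647 genes above 100 CPM). Among the abundant members, Snap25 stood at 2185, 2185 and 2106 CPM on plates 12, 13 and 25 and at 2780 and 2845 CPM on plates 39 and 40. Vamp2 was highest on plates 12 and 13 (539 and 527 CPM), with 375, 323 and 331 CPM on plates 25, 39 and 40. For Stxbp6, the All DR plates ran from 14.6 to 139.7 CPM (median 28.7), a 9.03-fold spread with 1 CPM added. The highest was plate 48, where 44 of 76 cells had a Zeb2 read, and 147 of the 709 cells of the dissection had one.

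Between the dissections, 2 of 47 members were past 2-fold, against 5.23% of all genes. Sv2b was higher in pDR (as were 3.24% of all genes) and Stxbp6 was lower (1.99%). The median log2 ratio (pDR over All DR) was -0.06 over the 47 members and -0.02 over all genes. Plate means of pDR and All DR did not overlap for 5 of 47 members (9.71% of all genes), namely Sv2b, Syt17 and Syt1 on the higher side and Stxbp6 and Stx1a on the lower side. Both shares were close to or below those of all genes.

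Sv2b stood at 90.6, 88.7, 74.3, 97.9 and 78.9 CPM on the 5 pDR plates, and at 19.3 to 41.4 CPM (median 30.0) on the 11 All DR plates. The groups did not overlap. The means were 86.1 ± 9.44 CPM (n = 5) and 30.5 ± 5.89 CPM (n = 11), a log2 ratio of 1.47. Reads were found in 96.6% of pDR cells (exact Clopper-Pearson 95% interval 93.8 to 98.3) and 80.3% of All DR cells (77.1 to 83.1). Per kilobase, Sv2b made up 19.1% ± 2.59 of the SV2 total in pDR (n = 5) and 8.97% ± 1.66 in All DR (n = 11), and Sv2a the larger part of it (79.6% and 88.4%). Sv2a itself was 199.5 ± 18.3 CPM in pDR and 167 ± 13.3 CPM in All DR, and its plates overlapped. Sv2c made up 1.30% and 2.64%.

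Stxbp6 stood at 4.18, 5.01, 4.15, 8.80 and 7.71 CPM on the pDR plates, all below the lowest All DR plate. Its means were 5.97 ± 2.15 CPM (n = 5) and 49.8 ± 42.6 CPM (n = 11), a log2 ratio of -2.87, with reads in 18.6% (95% interval 14.3 to 23.6) and 44.9% (41.1 to 48.6) of cells. With cells above 100 CPM of glial and endothelial markers left out, the ratios were -3.02 for Stxbp6 and 1.60 for Sv2b. With every cell that had a read of Zeb2 or Irx2 left out (296 of 709 in All DR and 13 of 290 in pDR, a selection added after the values were seen), Stxbp6 was 5.90 ± 2.20 CPM in pDR and 9.40 ± 5.48 CPM in All DR, a log2 ratio of -0.59. Over the same cells the Sv2b ratio was 1.07, with 87.4 ± 9.31 CPM in pDR (76.3 to 97.9) and 41.0 ± 8.48 CPM in All DR (32.3 to 57.4), still without overlap. The count past 2-fold was then 1 of 47 (3.97% of all genes).

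Below 2-fold, Syt1 was 1906 ± 178 CPM in pDR and 1363 ± 118 CPM in All DR (log2 ratio 0.48), and Syt17, a synaptotagmin-like protein of the Golgi and endosomes, was 48.1 ± 5.93 and 28.2 ± 7.30 CPM (0.75). Stx1a was 77.5 ± 18.9 and 111 ± 12.2 CPM (-0.52). The plates of Snap25 (2420 ± 360 and 1846 ± 197 CPM) and Vamp2 (419 ± 106 and 388 ± 39.8 CPM) overlapped between dissections.

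**Figure D2:**
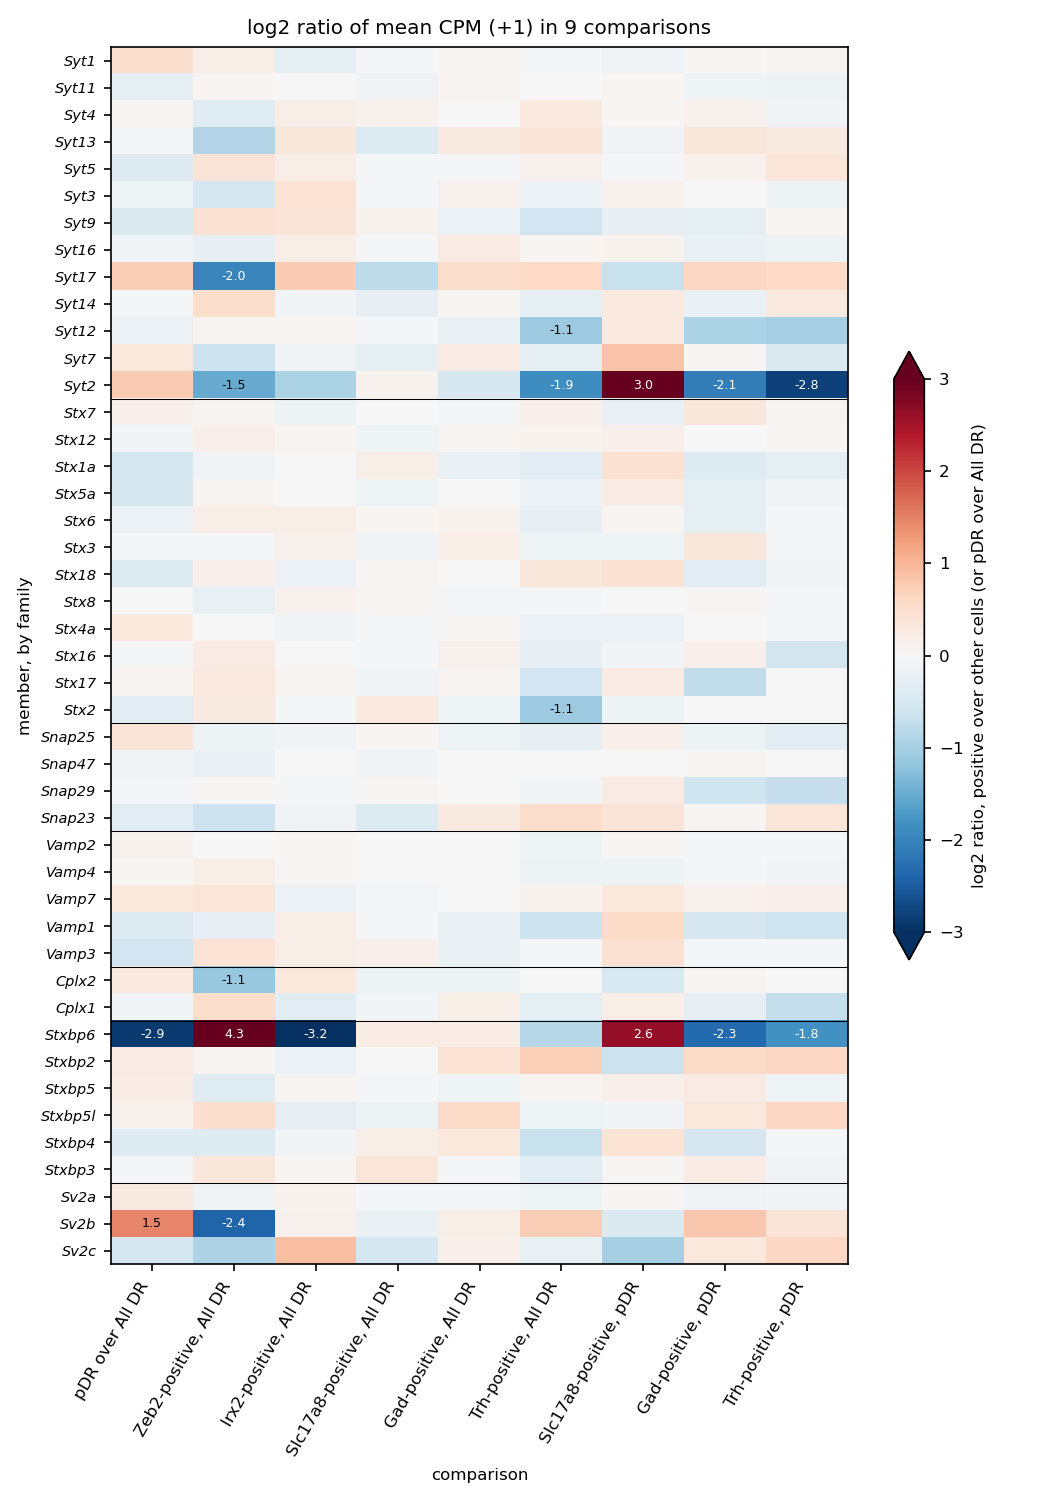
Heat map of the log2 ratio of mean CPM (1 CPM added) for 45 of the 47 members (rows, by family) in the comparison of dissections and in 8 comparisons of cells with and without a marker read (columns), with ratios past 2-fold printed. Stxbp6 is past 2-fold in 6 of the 9 columns and Syt2 in 5, and 7 of the rows hold a value past 2-fold.

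Cells were next divided within each dissection by a read of Zeb2 or Irx2, transcription factors, of Slc17a8, of Gad1 or Gad2 (the enzymes that make GABA, called Gad), or of Trh, which encodes thyrotropin-releasing hormone. Each class was compared with the remaining cells on the same plates, where at least 5 cells of each kind were present. Of the 47 members, 7 were past 2-fold in any of the 9 comparisons, namely Stxbp6, Syt2, Sv2b, Syt17, Cplx2, Syt12 and Stx2, and 40 were in none. In single comparisons 1.09% to 7.65% of all genes were past it. The share of all genes past it in any of the 9 was not computed, so these counts cannot be set against it. Over all 9 comparisons the log2 ratio of Vamp2 lay between -0.13 and 0.11, and that of Snap47 between -0.19 and 0.03. Other abundant members moved further while staying below 2-fold, among them Syt1 and Stx1a between the dissections. Cplx1 did so in Zeb2-positive cells and in Trh-positive cells of pDR.

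Zeb2-positive cells of All DR (147 of 709) had 5 of 47 members past 2-fold of the other 562 cells, against 7.65% of all genes, 1 higher and 4 lower (2.14% and 5.51% of all genes). On every plate 9 members differed in 1 direction (11.2% of all genes): Stxbp6, Cplx1 and Syt5 were higher and Sv2b, Syt17, Syt2, Cplx2, Syt13 and Snap47 lower. The median log2 ratio was 0.01 over the members and 0.00 over all genes. Median depth was similar, with 884326 reads in Zeb2-positive and 869119 in other cells.

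Stxbp6 in Zeb2-positive cells ran from 78.0 to 234 CPM over the 11 plates (median 179.6), and in the other cells from 3.74 to 14.8 CPM (median 6.25). The 2 ranges did not overlap. The means were 169 ± 57.3 and 7.76 ± 3.11 CPM (n = 11), and the log2 ratio was 4.28 (SD over plates 0.38). Reads were found in 85.7% of Zeb2-positive cells (95% interval 79.0 to 90.9) and 34.2% of the others (30.2 to 38.2). Thinned to 250000 reads a cell, the shares were 84.4% and 29.4%. The binding partner of syntaxin that it encodes is known as an inhibitor of SNARE assembly. The Stxbp6 gene lies at chr12:44852484-45074709 on the minus strand (GRCm38), and no other gene overlaps its exons.

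Sv2b in Zeb2-positive cells ran from 0 to 18.0 CPM (median 5.12), and in other cells from 31.6 to 52.0 CPM (median 35.1), again without overlap. The means were 6.53 ± 5.6 and 38.6 ± 6.53 CPM (n = 11), with a log2 ratio of -2.40 (SD over plates 1.22), and reads were found in 26.5% and 94.3% of cells. Sv2a differed little, so that per kilobase its part of the SV2 total was 96.1% ± 2.69 in Zeb2-positive and 86.1% ± 1.34 in other cells, and that of Sv2b 2.12% ± 1.86 and 10.9% ± 1.85. In All DR as a whole, 107 cells had reads of Sv2a alone among the 3 SV2 genes, 15.1% of the cells, compared with 7 of the 290 pDR cells (2.41%).

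The 2 complexins stood on opposite sides. Cplx2 was 153 ± 43.0 CPM in Zeb2-positive cells (93.7 to 234 CPM, median 158) and 339 ± 33.2 CPM in other cells (281 to 385 CPM, median 349.6), a log2 ratio of -1.14 (SD 0.38). Cplx1 was 394 ± 42.6 CPM against 272 ± 22.9 CPM (0.53, SD 0.22). Neither pair of ranges overlapped.

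Among synaptotagmins, Syt17 was 8.01 ± 7.46 CPM in Zeb2-positive cells (1.5 to 29.1 CPM, median 6.13) and 34.7 ± 12.3 CPM in other cells (19.8 to 69.2 CPM, median 32.7), a log2 ratio of -1.99 (SD 0.93). The ranges overlapped because of plate 50, with 29.1 CPM in its 11 Zeb2-positive cells. With the 5 cells that had reads of both Zeb2 and Irx2 set aside, the plates ran from 1.72 to 11.8 CPM. Syt2 was at 0.30 ± 0.49 CPM in Zeb2-positive cells, with 7 plates at 0, and at 2.67 ± 1.27 CPM in other cells (0.19 to 4.38 CPM), a log2 ratio of -1.5 (SD 0.71). It was read in 5 of 147 Zeb2-positive cells (3.4%) and in 20.1% of the others, and with 10 CPM added its log2 ratio was -0.30. Below 2-fold, Syt13 was 153 ± 33.3 against 282 ± 27.3 CPM (-0.88) and Syt5 279 ± 45.2 against 214 ± 26.1 CPM (0.38), while Syt1 was at 0.18.

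**Figure D3:**
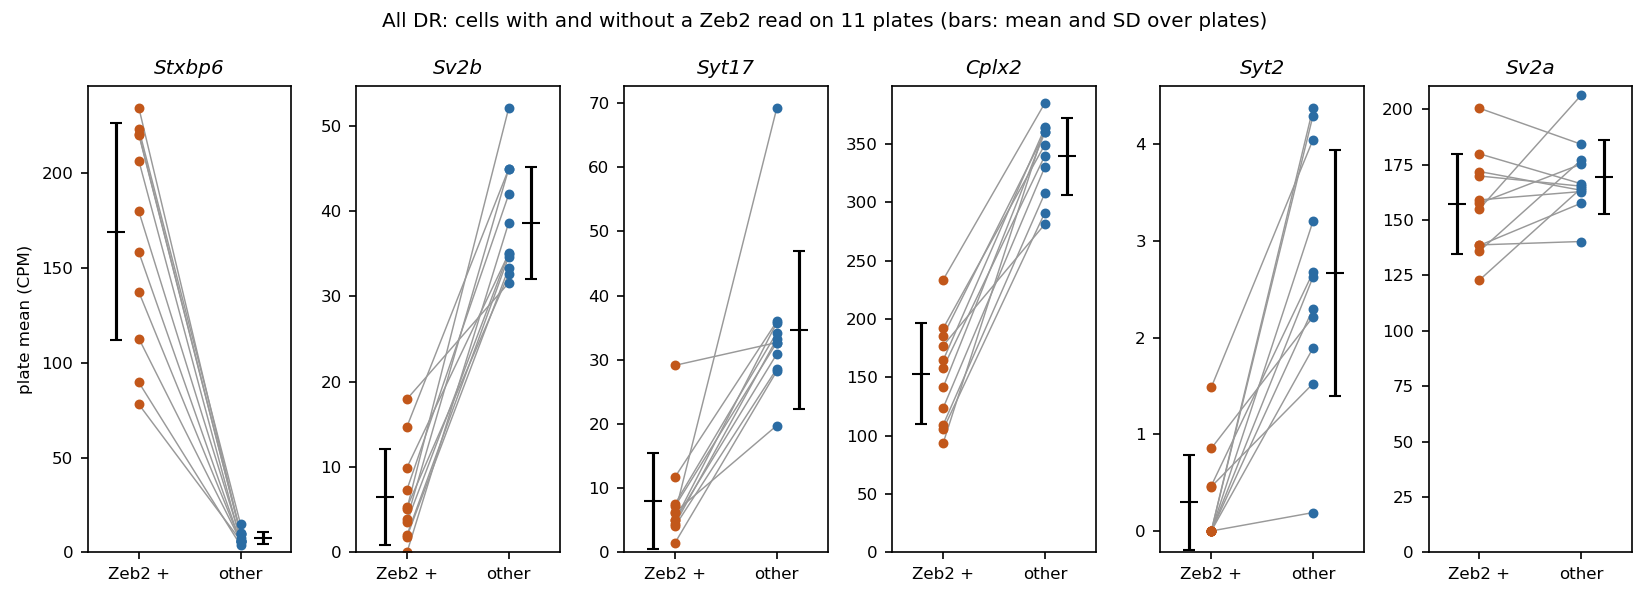
Mean CPM of 6 members in Zeb2-positive cells and in the other cells of the 11 All DR plates, with a grey line for each plate and black bars for the mean and SD over plates. Stxbp6 lies between 78.0 and 234 CPM in Zeb2-positive and at most 14.8 CPM in other cells, Sv2b, Syt17, Cplx2 and Syt2 are lower on each plate, and Sv2a is similar.

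Irx2-positive cells of All DR (154 of 709) had 1 of 47 members past 2-fold (2.41% of all genes), Stxbp6, which was lower (1.68%), and 3 with the same direction on all 11 plates (3.85%). Without plate 50, 57 or 63 the count past 2-fold was 2. Stxbp6 was 5.86 ± 4.24 CPM in Irx2-positive cells and 63.3 ± 53.0 CPM in the others, a log2 ratio of -3.23 (SD 0.95). The others here include the Zeb2-positive cells. Set against the 413 cells with neither marker, the 149 cells with Irx2 alone gave 5.47 ± 3.86 CPM (2.08 to 15.4 CPM) beside 9.40 ± 5.48 CPM (4.32 to 21.7 CPM), which overlap. The other 2 members were Syt3 (122 ± 17.1 against 92.2 ± 13.2 CPM, log2 ratio 0.40) and Syt1 (1166 ± 119 against 1426 ± 128 CPM, -0.29). Sv2b (32.8 ± 6.58 against 29.7 ± 7.49 CPM) overlapped. Median depth was 785380 reads in Irx2-positive and 910859 in other cells, and with all cells thinned to 250000 reads the Stxbp6 log2 ratio was -3.15.

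**Figure D4:**
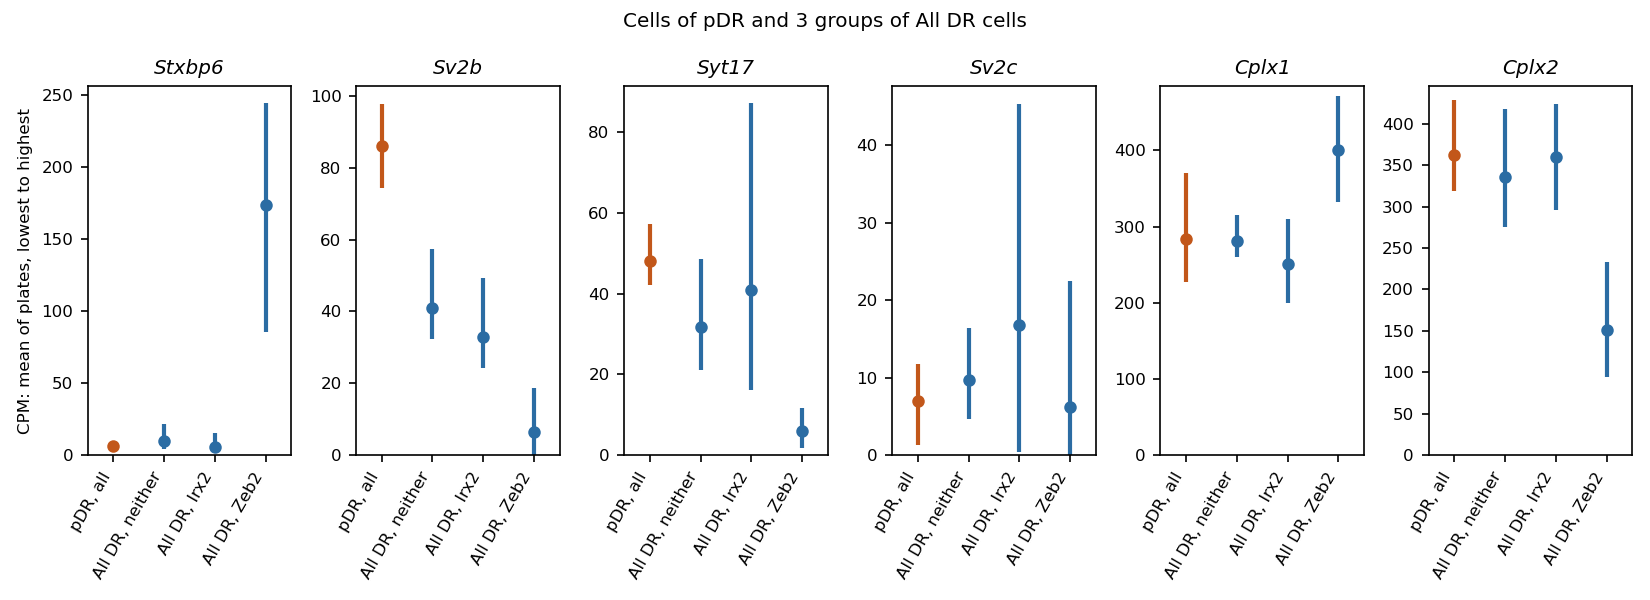
Mean over plates (point) and lowest to highest plate mean (line) of 6 members in pDR cells and in All DR cells with neither marker, with Irx2 alone and with Zeb2 alone (CPM, each panel from 0). All DR cells with Zeb2 alone do not overlap the other groups for Stxbp6 (174 CPM), Sv2b (6.28 CPM) and Cplx2 (151 CPM), their Cplx1 mean is the highest (401 CPM) but overlaps pDR, and pDR cells are the highest for Sv2b (86.1 CPM).

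Within pDR, the levels of 2 members, Syt2 and Stxbp6, went with the Slc17a8, Gad and Trh classes. In Slc17a8-positive cells (131 of 290) both were higher and were the 2 of 47 past 2-fold (2.82% of all genes in either direction and 1.58% higher), and without plate 12 the count was 4. Syt2 was 3.51, 5.90, 5.16, 17.8 and 15.0 CPM in Slc17a8-positive cells of plates 12, 13, 25, 39 and 40, and 0.44, 0.86, 0.26, 0.04 and 0 CPM in the other cells. Every plate was higher and the ranges did not overlap. The means were 9.47 ± 6.45 and 0.32 ± 0.35 CPM, a log2 ratio of 2.99 (SD 1.20), with reads in 26.7% and 5.03% of cells. Stxbp6 was 9.00, 9.87, 6.29, 20.7 and 14.4 CPM on the same plates against 0.55, 1.62, 1.45, 1.07 and 0.72 CPM, also without overlap. Its log2 ratio was 2.65 (SD 0.76), with reads in 31.3% and 8.18% of cells. Syt2 reads were concentrated in few cells: 43 of 290 pDR cells had any, and the 10% of cells with most held 96.0% of the summed CPM. With 10 CPM added in place of 1, a value near the levels themselves, the log2 ratios were 0.92 for Syt2 and 0.99 for Stxbp6, no longer past 2-fold.

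With the direction alone, 16 of 47 members were on 1 side on all 5 plates of this comparison, against 17.2% of all genes. They included Stx1a (91.2 ± 20.1 against 65.8 ± 18.6 CPM, log2 ratio 0.47), Vamp1 (64.7 ± 12.7 against 43.1 ± 4.50 CPM, 0.58), Cplx2 (301 ± 59.0 against 415 ± 32.3 CPM, -0.46, without overlap) and Sv2c (4.31 ± 2.78 against 9.51 ± 4.85 CPM, -0.99).

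Gad-positive cells of pDR (183 of 290) gave the opposite sign for both genes, which were again the 2 of 47 past 2-fold (3.5% of all genes, 1.5% lower), and without plate 12 the count was 4. Syt2 was 1.46 ± 1.35 CPM in Gad-positive and 9.31 ± 7.30 CPM in other cells (log2 ratio -2.06, SD 1.51, lower on 5 of 5 plates, ranges overlapping), and Stxbp6 1.72 ± 0.40 against 12.7 ± 5.43 CPM (-2.33, SD 0.71, no overlap). The classes share cells: 47 of the 131 Slc17a8-positive cells were also Gad-positive, as were 136 of the 159 without Slc17a8. Split by both markers, 84 pDR cells had Slc17a8 alone, 47 both, 136 Gad alone and 23 neither. Means were taken over plates with at least 5 cells of a class, so cells on other plates did not enter. Stxbp6 averaged 16.7 ± 8.49 CPM with Slc17a8 alone, 3.65 ± 2.46 CPM with both and 1.25 ± 0.57 CPM with Gad alone (n = 5, 4 and 5 plates). The class with neither gave 0.47 CPM for Stxbp6, 2.65 CPM for Syt2 and 61.0 CPM for Sv2b over 2 plates. Over the other 3 classes Syt2 followed the same order as Stxbp6, with 11.8 ± 9.77, 2.97 ± 2.6 and 0.19 ± 0.30 CPM. Plates overlapped between the first and second class for Syt2, and did not for Stxbp6. Sv2b was 64.2 ± 17.3, 92.5 ± 13.5 and 109 ± 28.2 CPM in these 3 classes. In Gad-positive cells as a whole it was 104 ± 19.6 against 59.0 ± 17.6 CPM, a log2 ratio of 0.81 without overlap, and Syt17 was 55.8 ± 8.17 against 35.7 ± 5.87 CPM (0.63, no overlap). On 1 side on all 5 plates were 11 of 47 members, against 17% of all genes.

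Trh-positive cells of pDR (98 of 290, of which 97 were Gad-positive) had the same 2 of 47 past 2-fold, both lower (3.87% of all genes in either direction, 2.22% lower), and without plate 40 the count was 4. Syt2 had 4 reads in 1 of the 98 Trh-positive cells, against reads in 21.9% of the other 192. Its plate means were 0, 0.35, 0, 0 and 0 CPM against 3.27, 4.08, 3.79, 11.6 and 9.82 CPM (log2 ratio -2.81, SD 0.81). Stxbp6 was 1.60 ± 0.96 against 8.14 ± 3.51 CPM (-1.81, SD 0.97). With 10 CPM added, the ratios were -0.71 for Syt2 and -0.64 for Stxbp6 in this class, beside -0.75 and -0.95 in the Gad class, and from means of ln(CPM + 1) they were -0.90 and -0.75 in this class. Syt12 was just short of 2-fold (2.77 ± 0.70 against 6.52 ± 1.94 CPM, no overlap), but 17% of its exon bases overlap a gene on the opposite strand. Of the abundant members, Cplx1 was lower (197 ± 58.1 against 323 ± 79.7 CPM, -0.71), as were Vamp1 (39.6 ± 5.88 against 59.9 ± 8.86 CPM, -0.59) and Snap25 (2081 ± 282 against 2574 ± 395 CPM, -0.31), each on 5 of 5 plates. On 1 side on all plates were 13 of 47 members, against 17% of all genes.

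**Figure D5:**
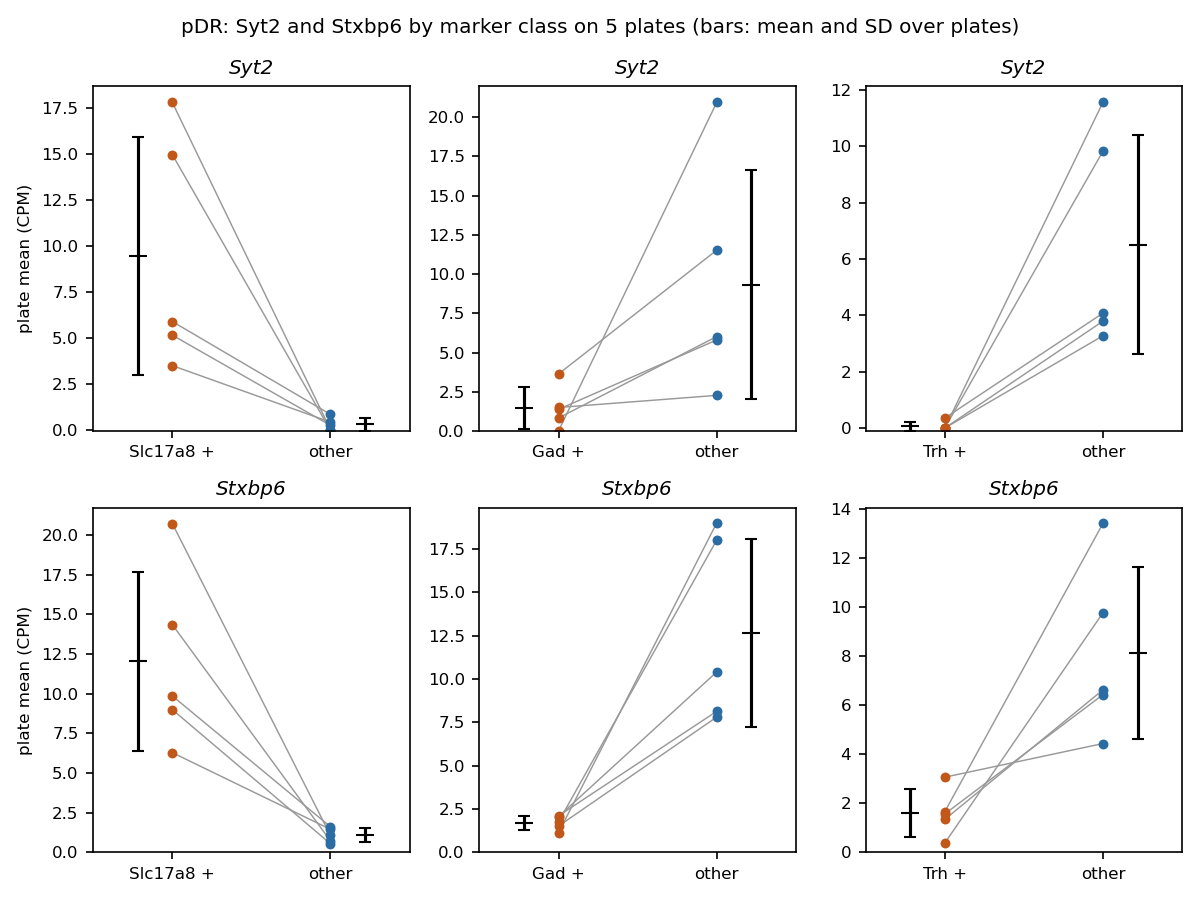
Mean CPM of Syt2 and Stxbp6 in cells with and without reads of Slc17a8, Gad and Trh on the 5 pDR plates, with grey lines joining the values of 1 plate and black bars for the mean and SD over plates. Both genes are higher in Slc17a8-positive cells on all 5 plates, and lower in Gad-positive and Trh-positive cells on all 5.

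In All DR, the Slc17a8 class (518 of 709) and the Gad class (164 of 709) had 0 of 47 members past 2-fold (1.25% and 1.09% of all genes). Stxbp6 was 51.3 ± 41.3 against 43.6 ± 47.9 CPM by Slc17a8 (log2 ratio 0.23, higher on 8 of 11 plates) and 56.1 ± 57.5 against 47.7 ± 40.1 CPM by Gad (0.23, higher on 7 of 11). Of the Zeb2-positive cells, 119 of 147 were Slc17a8-positive and 38 were Gad-positive. Without the cells that had a read of Zeb2 or Irx2, Stxbp6 was 9.51 ± 2.77 CPM in Slc17a8-positive and 1.01 ± 1.03 CPM in other cells, higher on 9 of 9 plates, with plates from 6.21 to 14.2 CPM and from 0 to 2.24 CPM. Its log2 ratio was then 2.39 (SD 0.72), beside 2.65 in pDR. Reads were found in 43.6% of 305 and 9.26% of 108 cells. By Gad over the same cells, Stxbp6 was 3.14 ± 2.47 against 7.71 ± 1.70 CPM (-1.07, SD 0.81, lower on 7 of 8 plates) and Syt2 1.46 ± 1.40 against 4.52 ± 1.38 CPM (-1.17, SD 0.91, lower on 7 of 8). Syt2 by Slc17a8 was 3.88 ± 1.38 against 2.59 ± 1.91 CPM (0.44, higher on 7 of 9 plates) over these cells, and 0.11 over all cells, beside 2.99 in pDR; the difference between dissections was not tested.

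A further 2 members were lower in 1 direction on all 11 All DR plates by Slc17a8: Syt13 (230 ± 20.2 against 306 ± 24.7 CPM, log2 ratio -0.41) and Snap47 (1374 ± 50.5 against 1462 ± 46.6 CPM, -0.09), with 1.64% of all genes so called. By Gad it was Syt1 alone, higher by a log2 ratio of 0.09 (0.851% of all genes).

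Trh-positive cells of All DR could be compared on 5 plates, with 27 of the 40 cells. Syt2, Syt12 and Stx2 were past 2-fold, all lower (3 of 47, against 5.32% of all genes in either direction and 3.34% lower). Syt2 had 0 reads in these 27 cells, which allows a share of cells of up to 11.1%, beside 16.6% of all All DR cells. The pooled other cells stood at 2.67 CPM. Syt2 reads came from few cells (the 10% with most held 89.0% of its summed CPM in All DR), so no smallest fold is given. Syt12 was 2.64 ± 2.15 against 6.77 ± 1.14 CPM (log2 ratio -1.09). Stx2, a plasma membrane syntaxin of many tissues, was 5.08 ± 3.95 against 11.9 ± 2.00 CPM (-1.09, SD 1.12), where in pDR its log2 ratio was -0.01. On 1 side on all 5 plates were 10 of 47 members, against 15.1% of all genes, 3 higher and 7 lower. They included Stxbp2, which makes Munc18-2, at 45.5 ± 8.5 against 27.4 ± 5.15 CPM (0.71), and Vamp1 at 42.0 ± 8.98 against 66.7 ± 5.5 CPM (-0.65), both without overlap. The median over members was -0.13, against -0.03 over all genes. Without plate 60 the log2 ratio of Syt12 was -0.98 and without plate 63 it was -0.89. That of Stx2 was -0.89 without plate 55 and -0.82 without plate 63, and without plate 57 the count past 2-fold was 5. With 10 CPM added no member was past 2-fold here (Syt2 -0.33, Stx2 -0.54, Syt12 -0.41), and with plates pooled Stx2 was at -0.64 and Syt12 at -0.73.

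Pairs of members were also compared over cells. Over the 999 cells, 14 of 741 pairs of the 39 members above 10 CPM had a correlation of ln(CPM + 1) of at least 0.4 in size. The share of all gene pairs past it was not computed, so this count cannot be called low or high. The 3 negative pairs all involved Stxbp6: with Sv2b (r = -0.54), Syt17 (-0.45) and Cplx2 (-0.43). In the 562 All DR cells without Zeb2 the same pairs were at -0.09, -0.25 and -0.06. These are descriptions over cells that share plates and depth.

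Other genes of the release pathway were described from 3 lists. Of 24 tested genes for priming and the active zone, Rab3b, a small GTPase of vesicles, was at 19.5 ± 6.00 CPM in pDR and 242 ± 148 CPM in All DR (log2 ratio -3.57), and Cadps, which encodes the priming factor CAPS of dense-core vesicles, at 123 ± 26.9 and 58.9 ± 10.8 CPM (1.04), and these were the 2 of 24 past 2-fold (5.23% of all genes). In Zeb2-positive cells 5 of the 24 were past 2-fold (7.65% of all genes): Rab3b at 587 ± 203 against 120 ± 38.5 CPM (2.28), Rimbp2, of the active zone, at 5.58 ± 3.28 against 25.7 ± 4.06 CPM (-2.02), and Unc13c, a priming factor, at 0.44 ± 0.69 against 3.64 ± 2.39 CPM (-1.69), with 2 more of smaller size, each on 11 of 11 plates. In the other comparisons 3 values were past it, 1 in Trh-positive cells of pDR (3.87% of all genes) and 2 in those of All DR (5.32%). In Trh-positive pDR cells Rab3b was at 2.58 ± 2.14 against 27.9 ± 10.2 CPM (-3.01). Of 8 other vesicle genes, Synpr, which encodes synaptoporin, was past 2-fold in 6 comparisons, where 1.25% to 7.65% of all genes were. In Slc17a8-positive pDR cells it was at 27.5 ± 10.6 against 9.16 ± 4.52 CPM (1.49, 5 of 5 plates, 2.82% of all genes). In All DR it was higher by Slc17a8 (1.73, SD 1.92, 10 of 11 plates) and by Zeb2 (2.38, SD 2.63, 7 of 11). It was lower by Irx2 (-1.18, SD 2.12, 9 of 11) and by Trh in pDR (-1.27) and All DR (-1.14), both on 5 of 5. Of 12 other SNAREs, which act at the Golgi, endosomes and endoplasmic reticulum, 0 were past 2-fold in any of the 9 comparisons. In single comparisons 1.09% to 7.65% of all genes were past it, and a list of 12 is too short to be told apart from that.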

How the data were processed

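The deposited table gave CPM per gene for 999 of 1536 labelled cells. Per the study's methods, the authors aligned 75-base pairs to mm10 with STAR 2.6.1a, counted them with HTSeq 0.11.2 ignoring strand, and kept cells with at least 300 genes and 50000 reads. In all 999 cells the values were integer steps (tolerance 0.001) of the value of a single read, and reads were recovered from them, but no count test was run because each dissection is 1 sample. The members and lists were chosen with earlier results of these data known.

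Plate means of CPM were averaged over plates. Marker classes (from 1 read) were compared on plates with at least 5 cells of each class. Genes had a read in at least 3 cells and a mean above 2 CPM. Called members were those past 2-fold with 1 CPM added. Full values were given for genes of evoked release and for every member past 2-fold, some genes and 1 pathway list are not reported here, and other pathway genes were named only past 2-fold, at most 3 of a list in each comparison. Coordinates and exon lengths came from GENCODE M21 (GRCm38), promoters from RefSeq. Reads carry no molecular identifiers, so intervals and floors cover counting error only. Doublets were not searched for, as single cells had been sorted into wells. Alternatives were another pseudocount (10 CPM), filters, ln(CPM + 1) means, thinning to 250000 reads and classes from 10 CPM. Others left out cells above 100 CPM of glial and endothelial markers, or each plate in turn. Python 3.11.15, NumPy 2.4.6, SciPy 1.17.1 and pandas 2.3.3 were used.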

Additional observations from a re-analysis of the deposited data

Results flagged for a closer look

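Over the 5 pDR plates, 3 of 47 members had 1 plate far from the others by Dixon's criterion, which chance gives in about 1 in 20 groups. Stxbp5l, which encodes tomosyn-2, was at 24.4 CPM on plate 13 and between 19.5 and 20.2 CPM on the other plates. Stx2 was at 7.39 CPM on plate 40 and between 9.36 and 10.0 CPM elsewhere. Stx17, the syntaxin of autophagosomes, was at 28.7 CPM on plate 40 and between 13.2 and 16.4 CPM elsewhere. None of the 3 enters a call between the dissections.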

How the results depend on the processing

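In the comparisons where a member was past 2-fold, its ratio changed sign under none of the alternatives. Of these values under the alternatives, 288 stayed within 1 SD over plates and 21 did not, of which 9 had 10 CPM added, 9 came from ln(CPM + 1) means and 3 left out cells with Zeb2 or Irx2. Counts past 2-fold moved as follows. At a fold of 1.5 they were 4 between the dissections, 9 for Zeb2, 4 for Irx2, 1 for Slc17a8 in All DR, 6 for Slc17a8 in pDR, 7 for Gad in pDR, 10 for Trh in pDR and 9 for Trh in All DR. With a pseudocount of 10 CPM the counts for Slc17a8, Gad and Trh in pDR and for Trh in All DR were 0, and those for the plate spread 0 in pDR and 2 in All DR. With no filter on the mean they were 2 for Irx2, 1 each for Slc17a8 and Gad in All DR and 5 for Trh in All DR, and above 10 CPM they were 1 each for Slc17a8, Gad and Trh in pDR and Trh in All DR. From means of ln(CPM + 1) they were 2 for Irx2, 1 for Slc17a8 in All DR, 4 for Gad in pDR and 16 for the pDR plate spread. Without cells above 100 CPM of glial and endothelial markers (557 of 999) they were 3 for Irx2, 4 for Slc17a8 in pDR, and 11 and 13 for the plate spread in pDR and All DR. A limit of 1000 CPM, which was not planned, left out 9 cells, and the counts were then 2 between the dissections and 5 for Zeb2. Without the cells with Zeb2 or Irx2 (added after seeing the data) they were 1 between the dissections (3.97% of all genes) and, in All DR, 1 for Slc17a8 (3.12%), 2 for Gad (2.71%) and 6 for Trh (9.32%), the last from 2 plates with 11 Trh-positive cells. For the other settings, and with single plates left out, the share of all genes was not computed. Those counts show only how the number of members moved. The cause of these moves was not tested.

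Leaving out 1 plate at a time gave counts of 2 to 2 between the dissections, 5 to 6 for Zeb2, 1 to 2 for Irx2, 0 to 0 for Slc17a8 and for Gad in All DR, 2 to 4 for Slc17a8, Gad and Trh in pDR, 2 to 5 for Trh in All DR, 1 to 4 for the pDR plate spread and 6 to 8 for that of All DR, and 40 to 40 members detected in at least 50% of cells. Trh in All DR could not be computed without cells above 100 CPM of glial and endothelial markers or with at least 10 cells of each class. No paired analysis was possible because the labels number cells and plates, not animals, and the dissections share no plate. With 1 sample a dissection, the difference between dissections cannot be told apart from that between their brains and plates.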

Other observations

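The level of Sv2c was carried by few cells. It was read in 87 of 290 pDR cells and 206 of 709 All DR cells, and the 10% of cells with most held 83.2% and 72.2% of its summed CPM. Of the pDR cells 6 were above 100 CPM, and of the All DR cells 11. For Stxbp6 in All DR, 111 of 709 cells were above 100 CPM, with a highest cell of 439 CPM.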
